A study of Homo sapiens with 11 samples.

Results

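The genes described here are 9 members of the p53 and RB pathways, chosen by name: CDKN1A, MDM2, CDKN2A, CDKN2B, RB1, CCND1, CCNE1, E2F1 and TERT. They were taken from 19646 protein-coding genes measured, and all 9 had a level in both RNA-seq libraries and annotated transcription start sites (TSSs) in hg19. The data came from HK2, an established line of human kidney proximal tubular epithelial cells, grown in 1 condition with DMSO in the medium. The measurements used were 2 RNA-seq libraries, labelled as mRNA and made, by the study's methods, after removal of ribosomal RNA, and 2 ChIP-seq replicates each of H3K4me3, H3K27ac and H3K27me3. No label gives a treatment or a second cell type, so values are described by library and replicate, and no test between groups was possible. HK2 was made by introducing the human papillomavirus genes E6 and E7, which limits it as a model of these pathways. Nothing in the labels says that replicates came from separate cultures, so their spread may be technical.

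p53 is a transcription factor that is stabilised by stress and switches on genes such as CDKN1A, whose product p21 blocks cyclin-dependent kinases (CDKs). MDM2 marks p53 for degradation, and ARF, a product of CDKN2A, holds MDM2 back. INK4A (p16), the other product of CDKN2A, and CDKN2B (p15) keep cyclin D kinases from phosphorylating RB1, which otherwise releases E2F factors that drive genes of S phase, CCNE1 and E2F1 among them. The papillomavirus protein E6 directs p53 to degradation and E7 binds RB1, and TERT, the catalytic subunit of telomerase, is a further gene that E6 is known to act on. The viral transcripts were not measured here, so none of these values is tied to them.

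H3K4me3 marks promoters, H3K27ac marks active promoters and enhancers, and H3K27me3 is the mark left by the Polycomb complex on repressed genes. A mark was counted at a gene when a called peak overlapped the 1 kb on either side of any annotated TSS in both replicates. The RNA level is FPKM, fragments per kilobase of transcript scaled to the mapped fragments of the library, summed over the transcripts of a gene, and genes are therefore compared per length.

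The sequences below stand in front of the starts on which the results turn, read from GRCh37 5′ to 3′ on the strand of the gene. Each promoter line holds the 200 bases before the outermost start annotated within 50 bp of the main start. Capitals mark matches, on either strand, to the E2F letters TTTCCCGC, TTTCGCGC, TTTGCCGC or TTTGGCGC, or to the Sp1 letters GGGCGG. The INK4A and ARF starts of CDKN2A are given because the gene makes its 2 products from them, the INK4A window at chr9:21974866-21975065 and the ARF window at chr9:21994411-21994610, both on the minus strand. RB1, E2F1 and CCND1 are given because they alone of the 9 genes hold an E2F match in this window, at chr13:48877680-48877879 (plus strand), chr20:32274192-32274391 (minus strand) and chr11:69455724-69455923 (plus strand).
CDKN2A INK4A start: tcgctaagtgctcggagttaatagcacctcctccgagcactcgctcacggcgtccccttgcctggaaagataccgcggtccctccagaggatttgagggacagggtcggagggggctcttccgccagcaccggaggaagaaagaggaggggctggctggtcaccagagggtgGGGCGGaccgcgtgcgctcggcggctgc
CDKN2A ARF start: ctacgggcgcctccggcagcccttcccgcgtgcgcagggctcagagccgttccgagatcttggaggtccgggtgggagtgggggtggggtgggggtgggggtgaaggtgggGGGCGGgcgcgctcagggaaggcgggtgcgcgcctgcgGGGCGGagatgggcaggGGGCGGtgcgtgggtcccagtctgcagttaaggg
RB1: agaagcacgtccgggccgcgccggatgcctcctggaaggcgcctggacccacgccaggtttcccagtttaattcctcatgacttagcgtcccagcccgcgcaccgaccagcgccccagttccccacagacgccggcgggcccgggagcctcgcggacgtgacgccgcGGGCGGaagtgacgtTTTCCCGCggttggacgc
E2F1: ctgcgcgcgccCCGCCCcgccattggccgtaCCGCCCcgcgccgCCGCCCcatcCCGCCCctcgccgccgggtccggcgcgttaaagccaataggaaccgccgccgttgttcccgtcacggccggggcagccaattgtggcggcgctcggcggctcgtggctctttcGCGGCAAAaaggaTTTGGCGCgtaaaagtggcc
CCND1: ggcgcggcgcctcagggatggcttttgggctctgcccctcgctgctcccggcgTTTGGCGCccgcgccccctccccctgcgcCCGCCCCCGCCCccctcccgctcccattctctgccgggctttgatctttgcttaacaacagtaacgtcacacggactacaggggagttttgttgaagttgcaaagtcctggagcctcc

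An E2F match was held by 3 of the 9 genes and by 3.02% of the 19646 promoter windows of the same length. E2F1 held 2, on opposite strands at bases -33 to -26 and -20 to -13 from its start. RB1 held TTTCCCGC at -18 to -11 and CCND1 held TTTGGCGC at -147 to -140. At least 1 Sp1 match was present before all 9 canonical starts, against 55.9% of all windows, with the most, 5, at CCNE1. The Sp1 letters are all G or C. These 9 windows held 66% to 81% G and C, against a median of 64% over all windows. The part of this base content in the Sp1 count was not tested. The INK4A window held 1 Sp1 match and the ARF window 3, and neither held an E2F match. These are matches of letters and not measured binding.

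A p53 response element is 2 half-sites of 10 bases side by side, and the next sequences are the sites in capitals, with 10 bases on either side, where at most 2 of the 20 bases departed from the p53 consensus within 2.5 kb of a canonical start. Such a site was found at CDKN1A and MDM2, 2 of the 9 genes, and at 11.8% of all protein-coding genes. CDKN1A held a further site of this kind at -1383 to -1364, which is not shown. The CDKN1A run lies at chr6:36644216-36644255 and the MDM2 run at chr12:69202693-69202732, both on the plus strand.
CDKN1A, upstream site: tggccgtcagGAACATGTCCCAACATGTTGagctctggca
MDM2, site in the first intron: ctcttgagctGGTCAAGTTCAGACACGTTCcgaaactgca

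The 2 sites differed in their marks. The MDM2 site, 746 to 765 bp after the canonical start, lay whole inside H3K4me3 and H3K27ac peaks in both replicates, with no H3K27me3 peak. The CDKN1A site, at -2265 to -2246 from the canonical start, lay outside all H3K4me3 and H3K27ac peaks. In replicate 2 it lay inside an H3K27me3 peak of 365 bp, and in replicate 1 the nearest H3K27me3 peak was 16.1 kb from the start. The second CDKN1A site lay outside the peaks of all 6 lists.

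Of the 9 genes, 8 reached an FPKM of 1 in each library, beside 58.8% of all protein-coding genes. CDKN2A was highest and TERT lowest, and the libraries kept the same order except for CCNE1 and RB1. Library depth, taken from the ratio of coverage to FPKM in the files, was 5.67 and 5.52 Gb of aligned sequence. Over the 8732 genes whose mean FPKM was 5 or more, the libraries differed by a median of 0.112 on the log2 scale. RB1 differed most of the 8 expressed members, by 0.26 on that scale.

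**Figure D1:**
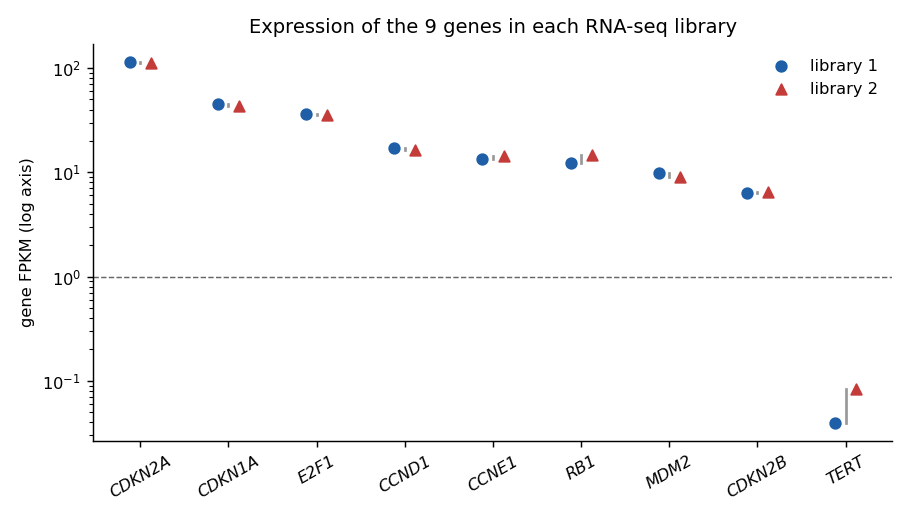
Gene FPKM of the 9 genes on a log axis, with a circle for library 1, a triangle for library 2 and a grey line joining them. The dashed line is an FPKM of 1, and TERT alone lies under it, at 0.0394 and 0.0827.

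The CDK inhibitors stood at the top and at the bottom of the expressed members. CDKN2A reached an FPKM of 114.2 in library 1 and 111.7 in library 2, at the 97.9th percentile of protein-coding genes. CDKN1A followed with 44.8 and 43.1. These ranges did not overlap, and CDKN2A was 2.57 times CDKN1A by the means of the libraries. CDKN2B, the neighbour of CDKN2A on chromosome 9, had an FPKM of 6.39 and 6.53, the lowest of the 8 expressed members. E2F1, the activator of S phase genes, had 36.3 and 35.5.

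The cyclins and RB1 lay close together. CCND1, which encodes cyclin D1, had an FPKM of 16.9 and 16.4, above both libraries of CCNE1 and RB1. CCNE1, which encodes cyclin E1, had 13.4 and 14.5, and RB1 had 12.2 and 14.6. The ranges of CCNE1 and RB1 overlapped and their order turned between libraries, so their levels were not separated. MDM2, the ubiquitin ligase of p53, had 9.79 and 8.93, under both libraries of RB1.

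TERT was near the limit of detection. Its FPKM was 0.0394 in library 1 and 0.0827 in library 2, at the 27.4th percentile of protein-coding genes, and rested on 0.899 and 0.566 kb of aligned sequence over the whole gene. By comparison CDKN2B, the next gene up, rested on 128.8 and 119.3 kb. In library 1 the whole TERT value belonged to the full-length coding transcript TERT-201. In library 2 the retained-intron transcript TERT-205 took 76.1% of it and TERT-201 had an FPKM of 0.0182. The higher gene value of library 2 thus came with fewer aligned bases, and the libraries do not fix an order for TERT.

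H3K4me3 was present at a start of all 9 genes in both replicates, beside 70.3% of protein-coding genes. H3K27ac was present at 8, beside 55% of protein-coding genes, and TERT was the exception. H3K27me3 was present in both replicates at 1 gene, CCND1, beside 11.4%. Thus 7 genes had H3K4me3 and H3K27ac without replicated H3K27me3, the pattern of 52.2% of protein-coding genes, and CCND1 and TERT departed from it in different ways. The replicates differed in the number and width of peaks, with 28615 H3K4me3 peaks in replicate 1 and 73505 in replicate 2, of a median 1194 and 434 bp. An H3K4me3 peak lay over the body of 74.8% of protein-coding genes in replicate 1 and 83% in replicate 2.

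**Figure D2:**
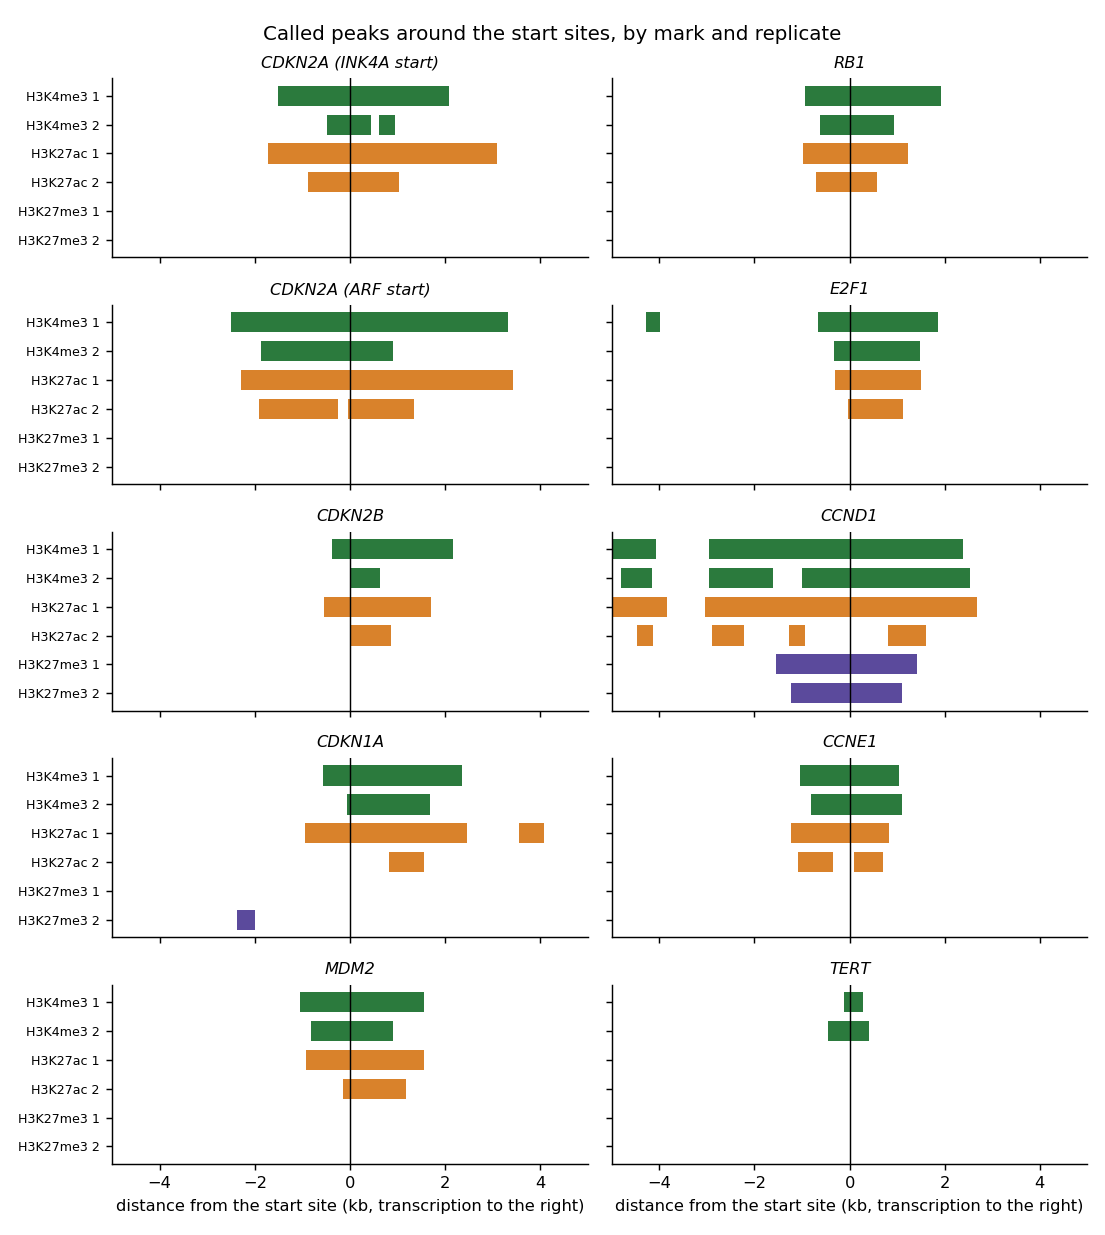
Called peaks within 5 kb of the canonical start of each gene and of the ARF start of CDKN2A, with the distance in kb and transcription to the right, by mark (H3K4me3 green, H3K27ac orange, H3K27me3 violet) and replicate (1 and 2). H3K27me3 covers the start of CCND1 in both replicates, lies upstream of CDKN1A in replicate 2 alone, and TERT has H3K4me3 alone.

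The 7 genes with the active pattern were CDKN1A, MDM2, CDKN2A, CDKN2B, RB1, CCNE1 and E2F1. The 10248 protein-coding genes with this pattern had a median FPKM of 11.7. CDKN2A stood at the 96th percentile among them, CDKN1A at 87.3 and E2F1 at 83.6. CDKN2B stood at 30.9 and MDM2 at 42.4, so the same marks went with levels that differed 17.5-fold between CDKN2A and CDKN2B.

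CDKN2A is a single gene (chr9:21967751-21995300, minus strand) with 2 separate starts for its 2 unrelated proteins, ARF from the distal one and INK4A from the proximal one. Both starts carried H3K4me3 and H3K27ac in both replicates. At the INK4A start the H3K4me3 peak was 3582 bp wide in replicate 1, and in replicate 2 the peak over the start was 911 bp. At the ARF start the H3K4me3 peaks were 5829 and 2786 bp, wider than at INK4A in each replicate. Both peaks also span the start of the antisense RNA CDKN2B-AS1, so their width cannot be assigned to ARF alone. H3K27ac covered all 200 bases of the INK4A window in both replicates, and of the ARF window 200 bases in replicate 1 and 19 in replicate 2, where 1 peak lay on each side.

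No H3K27me3 peak fell on CDKN2A or CDKN2B in either replicate, as held at the starts of 83.8% of protein-coding genes. The nearest one lay 536.5 kb from the INK4A start in replicate 1 and 545.5 kb in replicate 2, and 571 and 579.9 kb from the CDKN2B start. The median distance over protein-coding genes was 57.7 and 77.1 kb. Polycomb is known to silence this locus in young cells, and in both lists of HK2 it lay far from any called peak of that mark. RB1 and MDM2 were also distant, at 351.6 and 2743 kb for RB1 and 233.3 and 263.7 kb for MDM2.

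**Figure D3:**
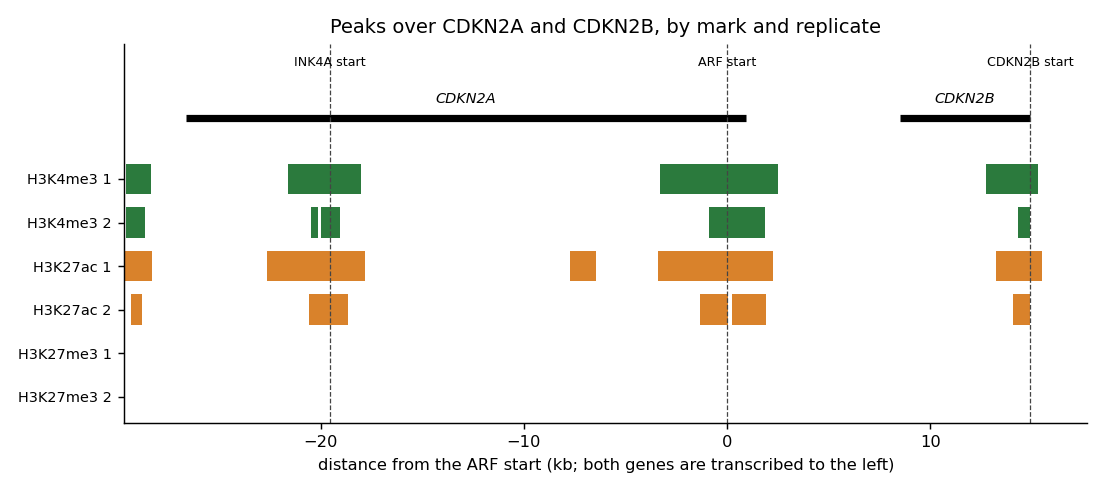
Peaks over CDKN2A and CDKN2B by mark and replicate, with the distance from the ARF start in kb on the horizontal axis, gene spans as black bars and starts as dashed lines. Both replicates have H3K4me3 (green) and H3K27ac (orange) within 1 kb of each of the 3 starts, and the H3K27me3 rows are empty.

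Transcripts starting at the ARF side summed to an FPKM of 64.1 in library 1 and 54.4 in library 2. Those starting at the INK4A side summed to 48.1 and 55. ARF was thus higher in library 1 and the starts were nearly level in library 2, where INK4A took 49.2% of the gene's FPKM and ARF 48.7%. The share of INK4A was 45.6% ± 5.02 (SD, n = 2) and that of ARF 52.4% ± 5.26 (SD, n = 2), so the libraries did not separate them.

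The exons that only one product uses gave a steadier value. Mean coverage of the first exon of INK4A was 607.1 reads per base in library 1 and 514.1 in library 2, summed over the transcripts that hold it. For the first exon of ARF it was 482.6 and 411.6. INK4A was higher in both libraries, 1.26 and 1.25 times ARF, or 55.6% ± 0.125 (SD, n = 2) of the coverage of both exons. The transcript values and the exon values therefore ranked the products differently in library 1, and this exon comparison was added after the data were seen.

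**Figure D4:**
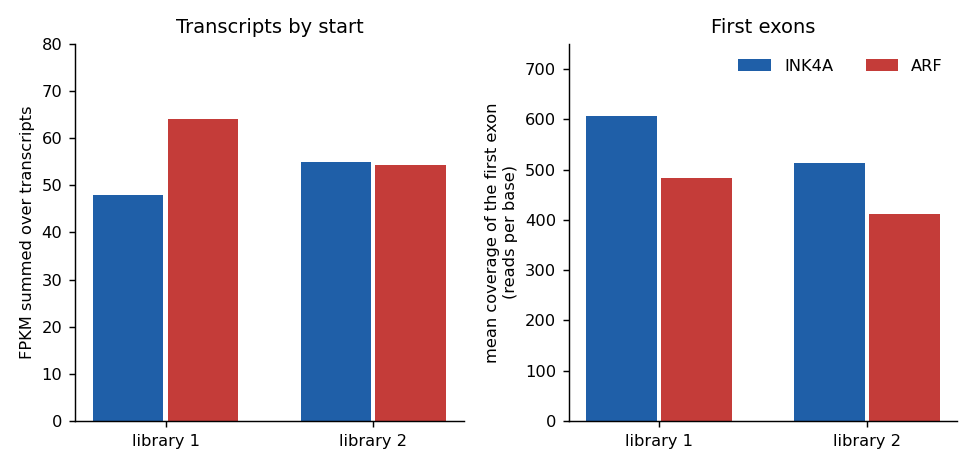
Values of the INK4A (blue) and ARF (red) products of CDKN2A in each RNA-seq library, as FPKM summed over transcripts by start (left) and as mean coverage of the first exon in reads per base (right). The transcript sums change order between libraries, at 48.1 and 64.1 in library 1 and 55 and 54.4 in library 2, while the INK4A exon is higher in both.

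The antisense RNA CDKN2B-AS1 (ANRIL), which starts beside ARF and runs across CDKN2B, had an FPKM of 0.324 and 0.865. Without a stated strand setting, reads of overlapping genes on opposite strands cannot be told apart. CDKN2B used its main start, which took 97.3% and 95.1% of its FPKM. Its H3K4me3 peak was narrow in replicate 2, with 610 bp at the 9.5th percentile of widths among genes with a peak, against 2543 bp and the 61.3rd percentile in replicate 1. Its H3K27ac peak was 2260 bp in replicate 1 and 833 bp in replicate 2, at the 59.7th and 44.5th percentiles.

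At CDKN1A (chr6:36644237-36655114, plus strand), the main start took 99.7% of the FPKM in library 1 and 82.3% in library 2. The difference was the transcript CDKN1A-208, which begins 2254 bp upstream, within the 20 bases of the p53 site shown above, and was listed at 0 in library 1 and at 7.57 in library 2. Its own 65-bp first exon had a coverage of 0 and 0.0323 reads per base, while the first exon of the main transcript had 133.4 and 115.9. No H3K4me3 or H3K27ac peak lay within 1 kb of the upstream starts in either replicate. The transcript value in library 2 thus had next to no reads in the exon that defines it, and the gene total, 44.8 and 43.1, differed by less between libraries than that transcript did.

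H3K4me3 at the main CDKN1A start was 2922 bp wide in replicate 1 and 1751 bp in replicate 2. H3K27ac ran from -936 to 2461 bp in replicate 1, whereas in replicate 2 it lay 826 to 1552 bp after the start. With a window of 500 bp the H3K27ac call of CDKN1A was lost for that reason. MDM2, the other p53 target among the members, had both marks over both of its promoters.

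MDM2 (chr12:69201957-69239324, plus strand) has a basal promoter and, in its first intron, one that p53 is known to drive. Transcripts from the basal starts summed to an FPKM of 3.38 and 3.21. The 5 transcripts that begin at the intronic exon summed to 0.662 and 0.114, and a further 17, whose models begin in the next exon, which basal transcripts share, to 3.96 and 4.32. The last group cannot be assigned to either promoter by its start. Mean coverage of the 316-bp first basal exon, summed over transcripts, was 18.3 and 10.8 reads per base. That of the 70-bp intronic exon was 4.02 and 1.96, lower in both libraries. The effect of exon length on these values was not tested, so they do not rank the use of the promoters. Single transcripts were not stable, with MDM2-206, of the shared-exon group, at 3.09 in library 1 and 0.763 in library 2. These exon values were added after the data were seen. The 3′ end of MDM2 overlaps CPM on the other strand, a gene with an FPKM of 11.3 and 11.7.

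RB1 (chr13:48877880-49173572, plus strand) used a single start group, which took 97.3% and 97.1% of its FPKM. That start had H3K4me3 peaks of 2854 and 1568 bp and H3K27ac peaks of 2221 and 1288 bp. Over the 295.7 kb of its GENCODE v44 span, H3K4me3 covered 1.31% in replicate 1 and 0.924% in replicate 2. A second pair of H3K4me3 and H3K27ac peaks, in both replicates, lay far inside the gene, at 227949 to 229909 bp from its start for H3K4me3 in replicate 1, at the start of RCBTB2, which runs the other way inside RB1 with an FPKM of 2.48 and 2.66.

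E2F1 (chr20:32263283-32274191, minus strand) has 1 annotated transcript here, so its gene and transcript values are the same. Its 2 E2F matches lay in H3K4me3 peaks in both replicates, as did the whole 200-base window. H3K27ac covered all 200 bases in replicate 1 and the 24 bases next to the start in replicate 2, which hold the nearer match alone.

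CCND1 (chr11:69455924-69469242, plus strand) was the only member with all 3 marks in both replicates, a pattern of 254 protein-coding genes, 1.29%. H3K27me3 covered 2329 bp in both replicates, from -1228 to 1100 bp of the start. H3K4me3 covered 3390 bp around the start in both, of which 2101 bp also had H3K27me3. H3K27ac in both replicates lay to the sides, with 348 bp from -1281 to -934 and 803 bp from 810 to 1612. Bases with all 3 marks in both replicates came to 67 bp upstream and 291 bp downstream, and none lay on the start itself.

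In replicate 1 alone, a single H3K27ac peak of 5702 bp spanned the CCND1 start, so the gap in acetylation rests on replicate 2. With a 500-bp window CCND1 kept H3K4me3 and H3K27me3 and lost the replicated H3K27ac. Genes with all 3 marks had a median FPKM of 2.73, and CCND1, at 16.9 and 16.4, stood at the 87th percentile among them. Its H3K4me3 peak was at the 98th percentile of widths in replicate 1 and at 98.8 in replicate 2. Peak lists cannot tell 2 marks on the same chromosome copy from marks on different copies or in different cells.

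CCNE1 (chr19:30302898-30315219, plus strand) had both active marks at its main start, with no H3K27me3 peak nearer than 51.8 kb. The main starts took 66% of its FPKM in library 1 and 54% in library 2. Transcript CCNE1-206, annotated from 5.21 kb inside the gene, took 23.1% and 29.9% and had none of the 3 marks within 1 kb of its start in either replicate.

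TERT (chr5:1253262-1295183, minus strand) had H3K4me3 at its start in both replicates, without H3K27ac. H3K4me3 without H3K27ac was found at 16.8% of protein-coding genes. The 2175 genes with H3K4me3 alone had a median FPKM of 2.65, and TERT stood at the 10.1th percentile among them. Its H3K4me3 peak was narrow, 394 bp in replicate 1 and 847 bp in replicate 2, at the 1.3rd and 18.2nd percentiles of widths. H3K27me3 did not reach the gene, and its nearest peaks lay 9.94 and 5.38 kb away.

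Along the body of TERT the replicates disagreed. H3K4me3 had 1 peak, at the start, in replicate 1, and 14 in replicate 2, covering 0.673% and 13% of the gene. The median protein-coding gene was covered by 2.97% and 2.96%. Neither H3K27ac nor H3K27me3 had a peak in the body in either replicate. Replicate 2 of H3K4me3 had the more numerous and narrower peaks over the genome, and its part in this difference was not tested.

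The lists around the members placed these values in their pathways. Over all protein-coding genes, 58.8% reached an FPKM of 1 in both libraries and 52.2% had the active pattern. Those with the active pattern had a median FPKM of 11.7, and 93.4% of them had a mean FPKM of at least 1. All 7 CDK inhibitors, of both families, reached an FPKM of 1 in each library, with a median of 31.1 against 3.32 over protein-coding genes. CDKN1C (p57) had 48.5 and 38.7, CDKN2C (p18) 32 and 30.3, CDKN1B (p27) 21 and 19.4, and CDKN2D (p19) 7.02 and 7.87. CDKN2A was the highest of the 7 and CDKN2B the lowest. The pattern of H3K4me3 and H3K27ac without replicated H3K27me3 was found at all 7.

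Of the RB pocket proteins, RBL2 (p130) had an FPKM of 16.7 and 18.7 and RBL1 (p107) 8.92 and 10.4, on either side of RB1. All 10 E2F and DP factors passed an FPKM of 1. TFDP1, a partner with which several E2F factors bind DNA, was highest at 65 and 58.7. E2F4 had 24.5 and 26.5, and E2F2 was lowest at 2 and 1.7. E2F1 was second of the 10. Among the E2F factors alone it was the highest in both libraries.

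Of 8 G1 cyclins and their kinases, 7 passed an FPKM of 1. CDK4, the kinase that cyclin D binds, was highest at 70.8 and 74. CCND3 had 30.8 and 32.3, above CCND1 in both libraries, and CCND2 had 0.673 and 0.468. CCND2 had H3K4me3 and H3K27me3 in both replicates and no H3K27ac in either, so the D cyclins showed 3 sets of calls: all marks at CCND1, no H3K27ac at CCND2, and H3K27me3 in replicate 2 alone at CCND3. CCNE2 had 12.6 and 13.6, near CCNE1. CDK2 had 23.1 and 20.4 and CDK6 had 13.9 and 15.7.

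Among 9 relatives and regulators of p53, 7 passed an FPKM of 1. USP7, which removes ubiquitin from MDM2, was the highest at 21.5 and 23.8. TP63 was the lowest, listed at 0 and 0.053, and TP73, the other gene under 1 and named after its values were seen, had 0.232 and 0.234. Of 28 p53 target genes, CDKN1A and MDM2 among them, 26 passed and 24 had the active pattern. Their median was 8.26, above the 3.32 of protein-coding genes and under the 11.7 of those with the active pattern. BAX, which opens the mitochondrial membrane in apoptosis, was highest at 54.9 and 51.9, EDA2R was listed at 0 in both, and SPATA18, named after its values were seen, had 0.154 and 0.162.

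All 25 E2F target genes, CCNE1 and E2F1 among them, passed an FPKM of 1 and had the active pattern, beside 58.8% and 52.2% of protein-coding genes. Their median was 44.6, against 3.32 over protein-coding genes and 11.7 over those with the active pattern. PCNA, the sliding clamp of DNA replication, was highest at 277.3 and 287.4, and RBL1 was lowest. CCNE1 lay under the median of this list and E2F1 did too.

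Of 13 genes of telomerase and the telomere-capping shelterin complex, 11 passed. NHP2, a protein of the telomerase particle, was highest at 81.5 and 75. The 2 that did not pass were TERT and TERC, the RNA template of telomerase, listed at 0 and 0.0275. Whether libraries labelled as mRNA capture TERC was not tested, so its value does not show that the RNA is absent. The start of TERC had H3K4me3 and H3K27ac in both replicates, unlike that of TERT.

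**Figure D5:**
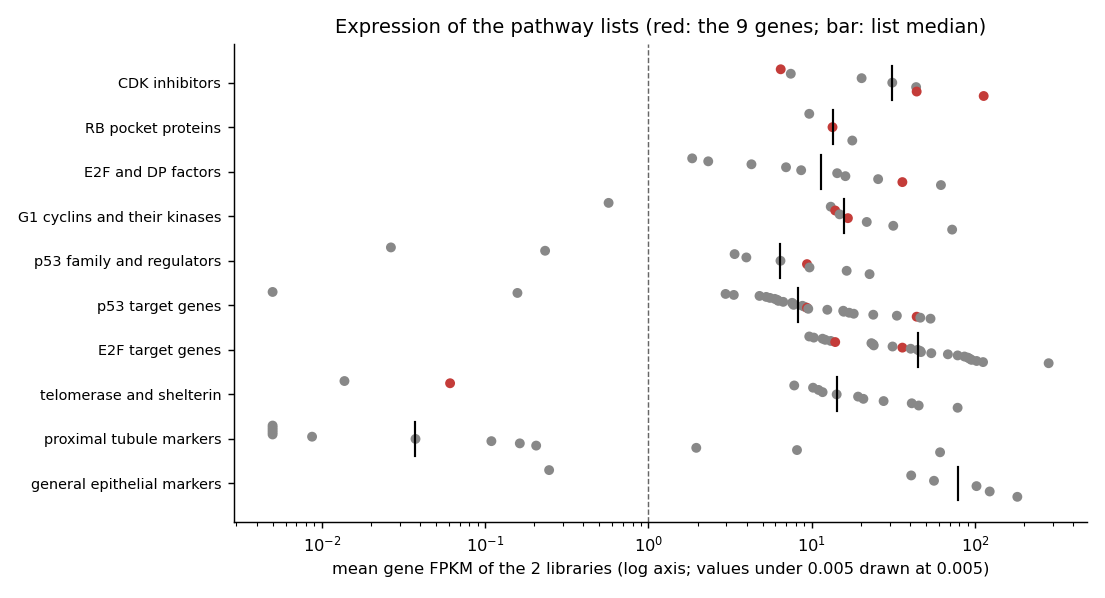
Mean gene FPKM of the 2 libraries for each gene of the pathway and marker lists on a log axis, with the 9 members in red, other genes in grey, a black bar for the median of each list and a dashed line at an FPKM of 1. Values under 0.005 are drawn at 0.005. The E2F target genes, with a median of 44.6, lie wholly above 1, and TERT lies far to the left of its list.

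The label of proximal tubular cells was checked against markers. Of 13 proximal tubule markers, 3 reached an FPKM of 1 in each library, with GGT1 highest at 64.1 and 58.1, and LRP2, the megalin receptor, was 1 of 5 listed at 0 in both. Of 6 genes listed as general epithelial markers 5 passed, with KRT8 highest at 179 and 184.3 and CDH1 lowest at 0.21 and 0.283. That list holds PAX8, a kidney lineage factor rather than a general epithelial marker. PAX8, named after its values were seen, had 100.2 and 104.1. The values of the 9 members thus describe an epithelial line in which most of these tubule markers were absent or near 0.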

How the data were processed

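The authors deposited 1 StringTie 1.3.3 table per RNA-seq library (HISAT2 alignment, GENCODE 27 annotation, coordinates in GRCh38), with coverage, FPKM and TPM per transcript, and 1 peak list per ChIP-seq replicate (cutadapt, Bowtie2 to hg19, MACS2). Cut-offs for peaks and the use of input are not given in the sources used here. Peak lists hold positions without heights or read counts. The study's supplement gives read numbers and shares of reads in peaks for each ChIP-seq replicate, which did not enter the values here. The share was far lower in H3K27ac replicate 2 than in replicate 1, and low in both H3K27me3 replicates. Whether peaks missing from these lists reflect this was not tested. Input and HiChIP samples were not analysed here. FPKM was summed per gene by Ensembl ID, and starts came from GENCODE v44 lifted to GRCh37. Of 86 member transcripts, 83 matched by ID. All 276858 peaks lay within GRCh37 chromosomes. Starts within 500 bp of the next were grouped. Overlap and motif code was tested on simulated data. The members and lists were chosen with earlier results of these data known. The genes named are the 9 members, every CDK inhibitor, pocket protein, E2F or DP factor and G1 cyclin or kinase where described, and the highest and lowest gene of each other list; 1 gene of these lists is not reported here. Alternatives were other thresholds, windows, overlaps, replicate rules and units. Python 3.11.15, numpy 2.4.6, pandas 2.3.3 and matplotlib 3.10.9 were used.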

Additional observations from a re-analysis of the deposited data

How the results depend on the processing

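No paired analysis was possible because every value is a level or a peak call in 1 condition, and no result comes from a fit. The count of 8 members with an FPKM of at least 1 was 8 at thresholds of 0.5 and 2, by TPM of at least 1, and in each library alone. H3K27me3 was found at 1 member in both replicates and at 2 with a peak in either replicate, CDKN1A being the second; with 1 replicate left out the count ranged from 1 to 2. Members with the active pattern numbered 7, and 6 with a 500-bp window, with a peak in either replicate, or from replicate 2 alone. The INK4A share of CDKN2A FPKM was 45.6%. It had to be the same by TPM and by coverage, because these units are proportional within a library. It was 45.8% over coding transcripts and 42.1% to 49.2% with 1 library left out. Of the first-exon coverage of INK4A and ARF, INK4A took 55.6%, where the denominator leaves out the other starts. Of 59 alternatives to the counts and the share, 56 kept a count within 1.5 times or the share within the spread of the libraries. The TPM and coverage shares are among the 56 and could not differ. A count within 1.5 times could still fall, as H3K27ac did from 8 to 6 members with a 500-bp window. The first-exon share lay outside that spread. TPM changed the scale of every gene, and the highest transcript alone gave 2.75 for MDM2 in place of 9.36. Each level rests on 2 libraries.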
